A study of Mus musculus with 21 samples.

Results

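The nuclear-encoded genes of the mitochondrial respiratory chain were followed in RNA of brain endothelial cells, the cells that line the vessels of the brain. Members were taken by gene name alone: the Nduf family, Sdha to Sdhd, the Uqcr family, Cyc1, the Cox4 to Cox8 families and the Atp5 family, without pseudogenes. Of 24206 gene names, 93 matched, and 86 of these had a mean of at least 1 RPKM (reads scaled to gene length and to the reads of the library) in the stroke experiment and again in the beta-catenin experiment. The 86 genes comprised 43 of complex I, 4 of complex II, 9 of complex III, 13 of complex IV and 17 of complex V. The 7 rows left out were all of complex IV isoforms: Cox4i2, Cox6a2, Cox6b2, Cox7b2, Cox8b, Cox8c and Ndufa4l2. In the stroke experiment the nearest rows on either side of the filter were Atp5sl, with a mean of 1.46 RPKM, and Cox6a2, with 0.540 RPKM.

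The respiratory chain passes electrons from NADH through complex I, or from succinate through complex II, to complex III, then by way of cytochrome c to complex IV and oxygen. Complexes I, III and IV pump protons across the inner mitochondrial membrane, and complex V, the ATP synthase, lets them flow back through a turning ring of c subunits to make ATP. Most subunits are encoded in the nucleus, and the remainder in mitochondrial DNA. Brain endothelial cells are known for a high content of mitochondria compared with endothelium elsewhere.

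The mice were C57BL/6 adults, 12 to 20 weeks old, and brain cells were sorted as live CD31+ cells without CD45 or PDGFRb, so leukocytes and pericytes were sorted against. In the stroke experiment mice of all 4 groups had 1 h of middle cerebral artery occlusion and 1 d of reperfusion, and each group had 4 libraries. The groups were Cko-ST and Cko-NS, the stroke and non-stroke hemisphere of Gpr124 flox/-; ROSA-CreER+ mice, and WT-ST and WT-NS, the same hemispheres of Gpr124 flox/+; ROSA-CreER+ mice. Thus the mice called WT carried 1 floxed allele and the same inducible recombinase, which the ROSA locus can express in many cell types, and no group came from mice without an occlusion. Gpr124 encodes a receptor that passes Wnt7 signals to brain endothelium. The beta-catenin experiment had no stroke and compared 3 Bcat libraries (Ctnnb1 lox(ex3)/+; Cdh5-CreER+, where the endothelial recombinase removes the exon that marks beta-catenin for breakdown) with 2 WT libraries (Ctnnb1 +/+; Cdh5-CreER+). Stroke libraries hold tags from the 3′ end of polyadenylated RNA, and the other libraries came from total RNA with another kit. Levels were therefore not compared between experiments. In the stroke experiment tags per transcript do not grow with length, yet RPKM divides by it. Sums over genes and levels of different genes there are thus weighted by gene length and serve as description only.

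Depth, estimated from the size of 1 read in low values, was 4.73 to 19.7 M reads in the stroke libraries and 6.14 to 15.0 M in the others. It averaged 15.0 M in Cko-ST (11.6 to 19.7), 9.12 M in Cko-NS (7.24 to 11.6), 10.9 M in WT-ST (6.56 to 19.3) and 8.4 M in WT-NS (4.73 to 14.6). Stroke hemispheres were thus sequenced deeper on average, and the part of depth in the results was not tested. In WT-NS 2 (6.94 and 34.8 M) and Bcat 2 (6.14 and 24.6 M) 2 estimates disagreed, and the lower was used. Endothelial markers were high in every group. Their summed level over 8 genes was 1325 to 1519 RPKM in Cko-ST, 1540 to 1773 in Cko-NS, 1280 to 1506 in WT-ST and 1419 to 1782 in WT-NS. Every Cko-ST library was below every Cko-NS library in this sum, while WT-ST and WT-NS overlapped. Gpr124 was 0.5002 to 1.72 RPKM in Cko-ST, against 2.92 to 8.12 RPKM in WT-ST. It overlapped in the non-stroke hemisphere, at 0.994 to 4.85 RPKM in Cko-NS and 2.65 to 7.58 RPKM in WT-NS. By Xist and Y-linked genes, the library labelled Cko-NS 4 (female) read as male and the library labelled Cko-ST 3 (male) read as female. Cko-ST 4 was male by label and genes. Cko-NS 4 was also the library with 4.85 RPKM of Gpr124, the highest of its group. The other Cko-NS libraries, at 0.994 to 3.15 RPKM, overlapped WT-NS as well. Whether Cko-NS 4 carried the labelled genotype was not tested. Counts and medians of members without Cko-NS 4 and Cko-ST 3 are given beside the stroke and genotype comparisons. Nothing in the labels ties libraries to separate animals, and the p-values measure only how far these samples spread, which may be technical.

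Promoters are shown for the 3 genes of the c-ring, which all rose after stroke in WT mice, for Ndufa12, which rose in both genotypes, and for Cox6a1 and Sdhd, in which motifs of 2 factors were found. Nuclear respiratory factor 1 (NRF1), the ETS factor GABPA and YY1 are known regulators of respiratory chain genes. Sequences are from RefSeq on GRCm38.p6, 300 bases around the annotated start, read 5′ to 3′ on the gene's strand. Capitals mark the NRF1 core GCGCANGCG or the ETS core CCGGAAG, searched on both strands, so a match on the other strand appears as its reverse complement.
Atp5g1, chr11:96075582-96075881, minus strand: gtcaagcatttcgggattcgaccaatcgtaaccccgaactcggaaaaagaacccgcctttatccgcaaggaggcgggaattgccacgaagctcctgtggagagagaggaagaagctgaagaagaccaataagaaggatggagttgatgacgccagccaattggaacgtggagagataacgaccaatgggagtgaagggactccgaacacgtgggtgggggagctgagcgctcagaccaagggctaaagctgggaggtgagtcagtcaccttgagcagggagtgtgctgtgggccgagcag
Atp5g2, chr15:102670998-102671297, minus strand: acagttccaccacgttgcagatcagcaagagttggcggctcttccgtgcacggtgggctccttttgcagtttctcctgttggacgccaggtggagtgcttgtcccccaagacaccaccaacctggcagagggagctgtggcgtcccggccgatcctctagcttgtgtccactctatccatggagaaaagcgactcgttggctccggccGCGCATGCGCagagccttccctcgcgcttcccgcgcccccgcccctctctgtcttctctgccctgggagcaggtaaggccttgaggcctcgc
Atp5g3, chr2:73911277-73911576, minus strand: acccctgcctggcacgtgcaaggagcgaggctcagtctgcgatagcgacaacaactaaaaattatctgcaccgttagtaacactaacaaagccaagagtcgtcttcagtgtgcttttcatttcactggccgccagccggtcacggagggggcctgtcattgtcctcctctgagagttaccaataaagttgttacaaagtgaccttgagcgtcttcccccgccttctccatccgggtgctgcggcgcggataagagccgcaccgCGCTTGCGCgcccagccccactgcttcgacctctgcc
Ndufa12, chr10:94198785-94199084, plus strand: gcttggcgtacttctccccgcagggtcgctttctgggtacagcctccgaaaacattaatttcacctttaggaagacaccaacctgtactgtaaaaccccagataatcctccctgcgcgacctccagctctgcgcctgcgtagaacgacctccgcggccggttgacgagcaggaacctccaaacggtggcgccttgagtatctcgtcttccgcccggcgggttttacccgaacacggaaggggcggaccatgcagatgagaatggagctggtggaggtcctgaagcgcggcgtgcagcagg
Cox6a1, chr5:115348909-115349208, minus strand: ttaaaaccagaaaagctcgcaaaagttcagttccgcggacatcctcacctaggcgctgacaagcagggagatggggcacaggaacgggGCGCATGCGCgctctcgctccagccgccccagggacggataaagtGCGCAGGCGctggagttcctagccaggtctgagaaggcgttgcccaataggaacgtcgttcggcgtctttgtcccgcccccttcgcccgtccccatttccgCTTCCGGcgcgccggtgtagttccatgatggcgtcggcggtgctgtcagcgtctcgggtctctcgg
Sdhd, chr9:50603800-50604099, minus strand: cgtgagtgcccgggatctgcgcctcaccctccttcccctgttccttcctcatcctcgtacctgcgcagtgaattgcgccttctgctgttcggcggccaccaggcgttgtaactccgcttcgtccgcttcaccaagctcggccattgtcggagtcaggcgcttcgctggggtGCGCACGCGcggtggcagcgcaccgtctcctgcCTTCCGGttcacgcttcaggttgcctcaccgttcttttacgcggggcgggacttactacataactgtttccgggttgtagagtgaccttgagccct
In Atp5g2 the capitals hold 2 overlapping matches, 1 on each strand. Cox6a1 had 3 NRF1 matches, 2 of them within the same run, and 1 ETS match. Atp5g1 and Ndufa12 held neither core in this window.

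Of the 86 members 73 matched an entry in the promoter table. A gene was counted if any of its promoters held the core. The shares of all promoters count each of 32851 promoters singly, so they are not like for like with the shares of genes. The NRF1 core was found in 22 of these 73 (30.1%), against 16.3% of the other genes tested in the stroke experiment and 6.25% of all promoters in the table. The ETS core was found in 17 (23.3%), against 21.4% of the other tested genes and 8.86% of all promoters. AAGATGGCG, the YY1 core, was found in 8 (11.0%), against 3.85% of other tested genes and 1.403% of all promoters. Among the 14 members that rose in WT-ST, 12 matched, and 5 of these held the NRF1 core, 5 the ETS core and 0 the YY1 core. The members lay on 19 chromosomes with at most 7 on any of them. Their longest annotated transcripts had a median length of 1231.5 bases, against 3331 bases for the other tested genes, and a median GC content of 49.9% against 48.4%.

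In the stroke hemisphere of WT mice 14 of the 86 members rose and none fell past the threshold (limma on log2(RPKM + 1), Benjamini-Hochberg adjusted p under 0.05 over 9838 genes). The 14 were 6 genes of the ATP synthase, among them all 3 genes of its c-ring, 4 of complex I, 2 of complex IV and 1 each of complexes II and III. They made up 16.3% of the members, against 8.46% risen among all tested genes, and the 0 fallen stood against 4.84%. At an unadjusted p under 0.05, 24 members were higher and 3 lower, against 15.3% and 11.8% of all tested genes. The log2 fold change was positive for 67 of the 86 members, against 50.8% of all tested genes, and its median was 0.33, against 0.01 over all tested genes. Among genes with a mean of at least 5 RPKM, 17 of 74 members rose and 1 fell, against 13.6% risen and 8.08% fallen of 5838 genes. The summed RPKM of the members was 4449 ± 440 in WT-ST and 3240 ± 387 in WT-NS (SD, n = 4 each), which was 1.18% and 0.944% of all RPKM.

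**Figure D1:**
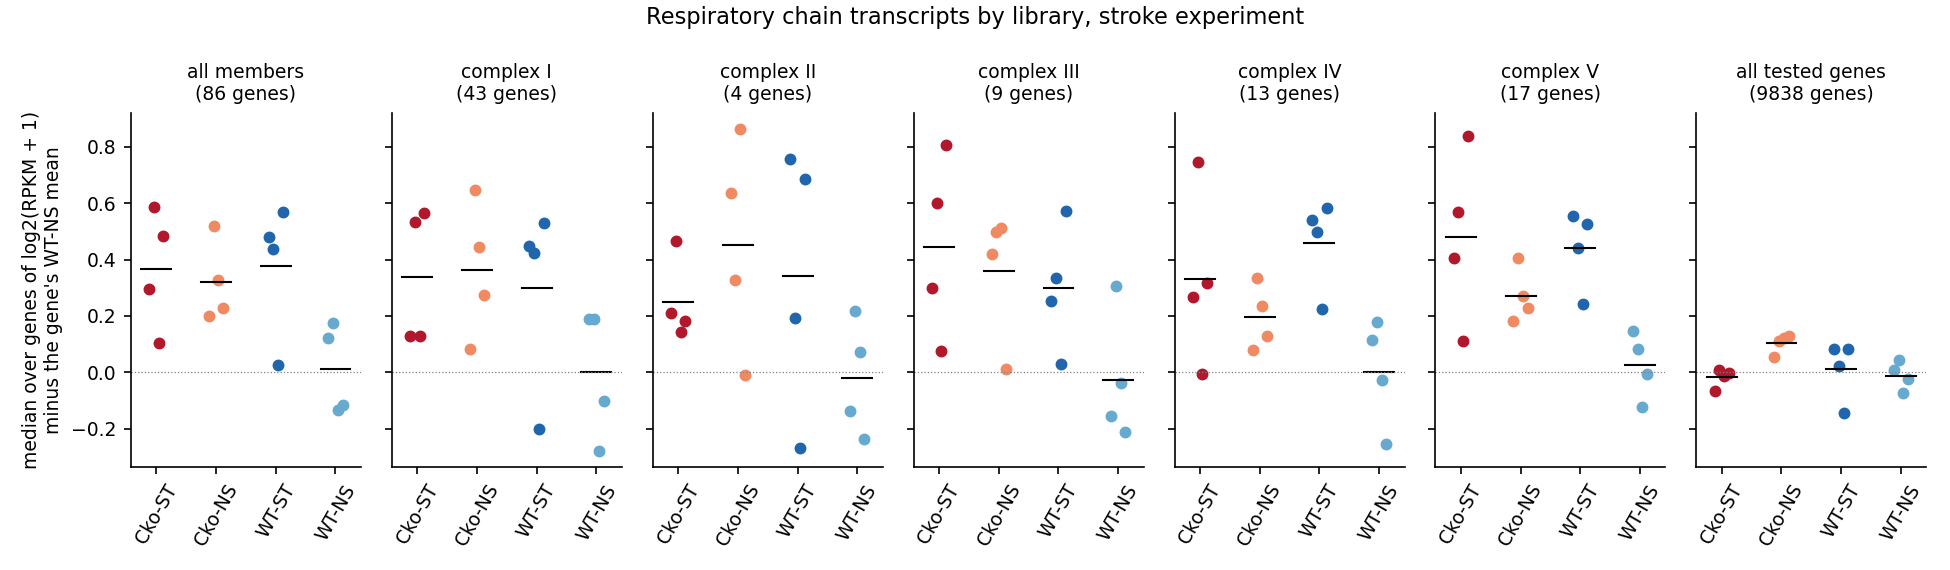
Each point is 1 library of the stroke experiment and shows the median, over the genes of a complex, of log2(RPKM + 1) minus the gene's mean in WT-NS; black lines are means of 4 libraries. Over all members the 8 Cko libraries lay between 0.10 and 0.59, the WT-ST libraries at 0.03 to 0.57 and the WT-NS libraries at -0.13 to 0.17.

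By library, the median shift of the members from their WT-NS means was 0.48, 0.44, 0.03 and 0.57 on the log2 scale in WT-ST 1 to 4, and 0.12, 0.17, -0.13 and -0.12 in WT-NS 1 to 4. Thus 3 WT-ST libraries lay above every WT-NS library, and WT-ST 3 lay among them. After median-of-ratios scaling, which sets the typical gene equal between libraries, the shift was 0.39, 0.38, 0.18 and 0.45 in WT-ST, and 0.11, 0.10, -0.06 and -0.10 in WT-NS, without overlap. That scaling left 13 of the 14 calls and lost Sdhd. Leaving out 1 library gave 6 to 15 risen members. It gave 8 without WT-NS 3, 7 without WT-NS 4, 6 without WT-ST 1, 8 without WT-ST 2 and 8 without WT-ST 4. In these fits 7.03%, 6.61%, 6.66%, 7.01% and 6.83% of all tested genes rose. Without WT-ST 1 the members' share was thus close to the background. In the rest of these fits its excess was smaller than with all libraries. Without Cko-NS 4 and Cko-ST 3, which enter through the shared spread, 16 members rose, with Cox7c and Ndufb3 added, and 2 fell. Of all tested genes 9.28% rose and 5.52% fell in that fit. Without WT-ST 1 the calls of Ndufa12, Atp5e, Atp5o, Atp5g2, Uqcrq, Sdhd, Cox5a and Cox6a1 were lost, and without WT-NS 4 those of Atp5e, Atp5o, Atp5g2, Uqcrq, Ndufb6, Sdhd and Cox6a1.

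The ATP synthase held the largest rise. Atp5g1, which encodes the c subunit of the ring (GRCm38 chromosome 11, 96068852 to 96075670, minus strand), measured 16.1, 9.48, 6.81 and 11.7 RPKM in WT-ST, against 3.88, 4.47, 1.85 and 1.26 RPKM in WT-NS. Every WT-ST value lay above every WT-NS value. Its log2 fold change was 1.67 ± 0.36 (SE; adjusted p = 0.00388, limma), and it held in each of the 16 fits that left out a library. Atp5g2 and Atp5g3 encode the same mature c subunit with different import sequences. Atp5g3 (chromosome 2, 73908447 to 73911326, minus strand) measured 121, 108, 109.9 and 96.5 RPKM in WT-ST, against 53.8, 68.4, 76.7 and 70.0 RPKM in WT-NS. Its groups did not overlap, and its log2 fold change of 0.69 ± 0.15 (limma adjusted p = 0.00429) also held in all 16 fits. Atp5g2 (chromosome 15, 102662864 to 102672352, minus strand) measured 147, 119, 106 and 113 RPKM in WT-ST, against 91.1, 78.2, 70.3 and 80.02 RPKM in WT-NS. The groups did not overlap, with a log2 fold change of 0.59 ± 0.17 (limma adjusted p = 0.0291) that was lost in 5 of the 16 fits.

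In the F1 head, where ATP is made, Atp5b encodes the catalytic beta subunit. Atp5b measured 58.0, 49.1, 42.5 and 71.0 RPKM in WT-ST, against 31.7, 33.4, 24.5 and 29.6 RPKM in WT-NS, with no overlap (log2 fold change 0.85 ± 0.21, limma adjusted p = 0.0113). Atp5e, the small epsilon subunit, measured 209.6, 137, 114 and 247 RPKM in WT-ST, against 95.0, 96.0, 84.2 and 66.2 RPKM in WT-NS. All WT-ST libraries were higher, by 0.99 ± 0.26 on the log2 scale (limma adjusted p = 0.0149). Atp5o, part of the stalk that holds the head still, averaged 66.8 ± 17.0 RPKM in WT-ST and 32.3 ± 8.13 RPKM in WT-NS (SD, n = 4 each), a log2 fold change of 1.03 ± 0.29 (limma adjusted p = 0.0251). Atp5a1, the partner of Atp5b in the head, averaged 89.0 ± 8.60 RPKM in WT-ST and 66.1 ± 9.30 RPKM in WT-NS and did not pass (0.43 ± 0.17, adjusted p = 0.0969 in limma). Atp5c1, the turning shaft, did not pass either (0.30 ± 0.29, adjusted p = 0.571). Of the 17 complex V genes 15 had a positive log2 fold change, against 50.8% of all tested genes. The exceptions were Atp5s and Atp5sl, which carry the name but encode no subunit of the enzyme.

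**Figure D2:**
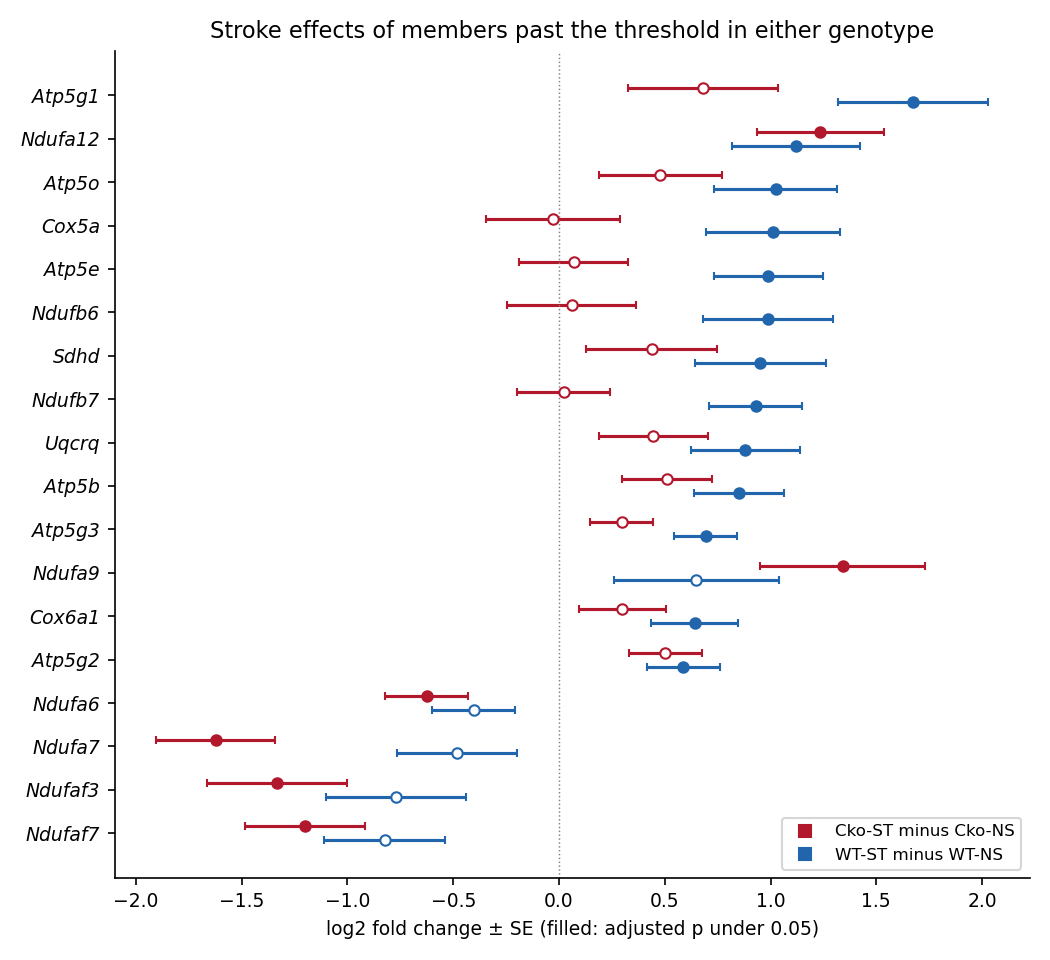
Log2 fold change ± SE, on the log2(RPKM + 1) scale, between the stroke and non-stroke hemisphere for 18 members past the threshold in either genotype; red is Cko, blue is WT, and filled points have an adjusted p under 0.05. Ndufa12 alone is filled in both genotypes, and Atp5g1 has the largest WT value, 1.67.

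In complex I, where electrons enter from NADH, 4 of 43 members rose after stroke in WT mice. That share was close to the 8.46% risen among all tested genes. Ndufa12, an accessory subunit of the arm that reaches into the matrix (chromosome 10, 94198720 to 94221443, plus strand), measured 28.4, 25.0, 17.6 and 15.7 RPKM in WT-ST, against 10.5, 8.96, 7.99 and 9.25 RPKM in WT-NS. Every WT-ST value was higher (log2 fold change 1.12 ± 0.30, limma adjusted p = 0.0185). Ndufb7, an accessory subunit of the membrane arm (chromosome 8, 83566671 to 83571626, plus strand), measured 54.8, 52.3, 36.0 and 54.6 RPKM in WT-ST, against 27.6, 28.7, 25.8 and 19.4 RPKM in WT-NS. Its groups were apart too, by 0.93 ± 0.22 on the log2 scale (limma adjusted p = 0.00843), and the call held in all 16 fits. Ndufb6 averaged 48.1 ± 12.4 RPKM in WT-ST and 24.7 ± 10.2 RPKM in WT-NS with overlapping groups (0.99 ± 0.31, limma adjusted p = 0.0394), and its last 350 bases overlap the 3′ end of Smim27 on the other strand, so its tags are uncertain, since the use of strand in counting is not stated.

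Among core subunits of complex I these did not pass in WT mice: log2 fold changes were -0.08 for Ndufs1, 0.32 for Ndufs3, 0.05 for Ndufs7, -0.27 for Ndufs8, 0.10 for Ndufv1 and 0.43 for Ndufv2. Of the 7 assembly factors named Ndufaf, which help build complex I and are not part of it, none passed in WT mice. The 2 lowest, Ndufaf7 (-0.82 ± 0.28, limma adjusted p = 0.063) and Ndufaf3 (-0.77 ± 0.33, limma adjusted p = 0.139), had negative values.

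In complex II the membrane anchors and the catalytic subunits differed in sign. Sdhd, an anchor, measured 30.1, 18.4, 17.7 and 17.5 RPKM in WT-ST, against 9.38, 13.7, 13.6 and 5.71 RPKM in WT-NS. The groups were apart, but the call was at the edge of the threshold (0.95 ± 0.31, limma adjusted p = 0.0498) and was lost in 11 of 16 fits that left out a library. Sdhc, the other anchor, had a log2 fold change of 0.81 ± 0.33 (limma adjusted p = 0.122). Sdha, the flavin subunit that oxidises succinate, averaged 30.7 ± 5.57 RPKM in WT-ST and 40.2 ± 9.89 RPKM in WT-NS (-0.36 ± 0.21), and Sdhb, the iron-sulfur subunit, had -0.19 ± 0.36; neither passed. In complex III, Uqcrq, a small subunit, rose by 0.88 ± 0.26 (limma adjusted p = 0.0294; named after its value was seen). The redox and core subunits Cyc1 (0.04), Uqcrfs1 (-0.12), Uqcrc1 (0.61) and Uqcrc2 (0.19) did not pass.

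In complex IV, where oxygen is reduced, Cox6a1 and Cox5a rose in WT mice. Cox6a1 measured 178, 116, 99.3 and 128 RPKM in WT-ST, against 88.1, 96.5, 75.8 and 68.1 RPKM in WT-NS (0.64 ± 0.21, limma adjusted p = 0.0475). Cox5a measured 59.9, 66.5, 47.1 and 87.8 RPKM in WT-ST, against 18.5, 51.3, 23.5 and 41.4 RPKM in WT-NS (1.01 ± 0.32, limma adjusted p = 0.0416). Cox6a1 groups did not overlap and Cox5a groups did, and the calls were lost in 9 of 16 fits for Cox6a1 and in 7 for Cox5a. The log2 fold change was positive in all 11 widely expressed subunits of complex IV, from 0.01 for Cox8a upward, against 50.8% of all tested genes. Among these 11, Cox4i1 (0.29 ± 0.22), Cox5b (0.49 ± 0.20) and Cox6b1 (0.37) did not pass. Ndufa4, named for complex I and found with complex IV, measured 423, 346, 419 and 529.9 RPKM in WT-ST, against 377, 313, 256 and 119 RPKM in WT-NS, and missed the threshold (0.79 ± 0.27, limma adjusted p = 0.0623).

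Cox7a2l, classed as a factor of the supercomplexes of III and IV, had the most negative value of all members in WT mice. It measured 20.2, 28.3, 25.9 and 30.7 RPKM in WT-ST, against 51.3, 52.3, 56.1 and 55.2 RPKM in WT-NS. The groups were well apart, yet the test missed the threshold (-1.02 ± 0.35, limma adjusted p = 0.0641), in a fit that pools the spread of all 4 groups. In Cko mice it measured 30.1, 29.9, 43.1 and 7.29 RPKM in Cko-ST, against 37.7, 50.04, 57.5 and 54.2 RPKM in Cko-NS (-1.05 ± 0.35, limma adjusted p = 0.0534). Cko-ST 3 overlapped Cko-NS, and Cko-ST 4 lay lowest of all. With a replicate block the Cko value passed (adjusted p = 0.0483) and the WT value did not (adjusted p = 0.0561).

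**Figure D3:**
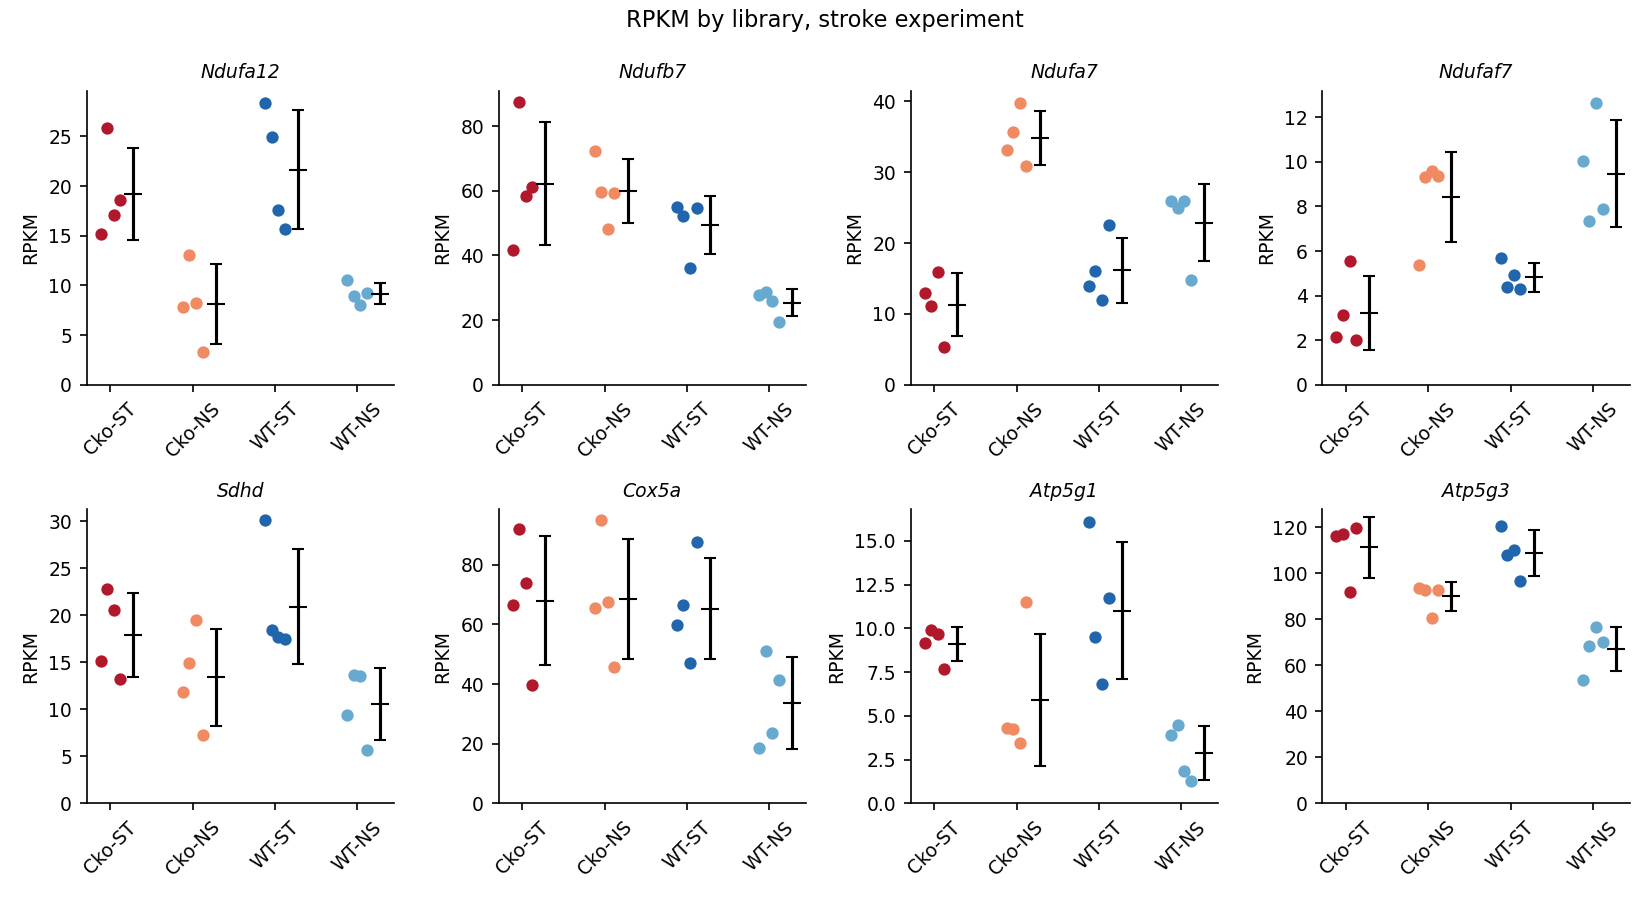
RPKM of 8 members in each library of the stroke experiment, with the mean and SD of 4 libraries beside the points. Ndufa12 is higher in the stroke hemisphere of both genotypes, Ndufa7 is lowest in Cko-ST (5.35 to 15.9 RPKM), and Ndufb7 is lowest in WT-NS (19.4 to 28.7 RPKM).

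In the stroke hemisphere of Cko mice 2 members rose, Ndufa12 and Ndufa9, and 4 fell, Ndufa7, Ndufa6, Ndufaf7 and Ndufaf3, all named for complex I. The 2 risen were 2.33% of the members, against 6.44% of all tested genes, and the 4 fallen were 4.65%, against 8.71%. At an unadjusted p under 0.05, 6 members were higher and 8 lower, against 11.5% and 17.7% of all tested genes. The median log2 fold change was 0.05 over the members and -0.13 over all tested genes. With median-of-ratios scaling the median over all genes moved to -0.02 and that over the members to 0.18, with 5 members risen and 3 fallen: Atp5a1, Atp5b and Atp5g2 were added and Ndufa6 was lost. Under that scaling 8.57% of all tested genes rose and 6.37% fell, so the members' counts stayed below these shares. At an unadjusted p under 0.05, 15 members were then higher and 6 lower, against 15.2% and 13.7% of all tested genes. The members' share was thus slightly above the background for higher values and below it for lower ones. The summed RPKM of the members was 4277 ± 726 in Cko-ST and 3927 ± 224 in Cko-NS (SD, n = 4 each).

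Ndufa7, an accessory subunit of the matrix arm (chromosome 17, 33824572 to 33838317, plus strand), measured 12.9, 11.1, 15.9 and 5.35 RPKM in Cko-ST, against 33.1, 35.6, 39.8 and 30.9 RPKM in Cko-NS. Every Cko-ST value lay below every Cko-NS value, and the log2 fold change was -1.62 ± 0.28 (limma adjusted p = 7.56e-04). The call held in all 16 fits that left out a library. In WT mice Ndufa7 measured 13.9, 16.1, 11.9 and 22.6 RPKM in WT-ST, against 26.0, 24.9, 25.9 and 14.8 RPKM in WT-NS, and did not pass (-0.48 ± 0.28, limma adjusted p = 0.294). The difference between the genotypes was -1.14 ± 0.40, with an unadjusted p of 0.0105 and an adjusted p of 0.681 in limma, so it did not pass either.

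Ndufa12 measured 15.2, 25.8, 17.1 and 18.6 RPKM in Cko-ST, against 7.86, 13.1, 8.25 and 3.34 RPKM in Cko-NS. All Cko-ST values were higher (1.24 ± 0.30, limma adjusted p = 0.00951), and the change differed from that in WT mice by 0.11 ± 0.43. Ndufa9, next to it in the matrix arm, measured 22.0, 40.5, 26.7 and 41.1 RPKM in Cko-ST, against 4.77, 16.0, 10.8 and 22.4 RPKM in Cko-NS. Cko-NS 4 overlapped Cko-ST (1.34 ± 0.39, limma adjusted p = 0.0263). Ndufa6 averaged 54.9 ± 9.69 RPKM in Cko-ST and 84.2 ± 4.31 RPKM in Cko-NS (SD, n = 4 each; -0.63 ± 0.20, limma adjusted p = 0.0394). Same-numbered Cko-NS and Cko-ST libraries deviated together, and with the number as a block the adjusted p of Ndufa6 was 0.0547, which ends the call. Ndufa9 was also lost without Cko-ST 2, Cko-ST 4, Cko-NS 1 or Cko-NS 3, and Ndufa6 without Cko-ST 1, Cko-ST 4 or any Cko-NS library. The block added Atp5g2 to the risen, and Cox7a2l and Ndufs7 to the fallen (adjusted p = 0.0407, 0.0483 and 0.00759 in limma).

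The 2 assembly factors that fell in Cko mice were low in level. Ndufaf7, an arginine methyltransferase needed for assembly, measured 2.16, 3.15, 5.57 and 2.03 RPKM in Cko-ST, against 5.39, 9.33, 9.61 and 9.37 RPKM in Cko-NS. Cko-ST 3 overlapped Cko-NS 1 (-1.20 ± 0.28, limma adjusted p = 0.00763). Ndufaf3 measured 1.30, 1.99, 1.30 and 0.855 RPKM in Cko-ST, against 5.49, 4.38, 3.86 and 5.95 RPKM in Cko-NS (-1.33 ± 0.33, limma adjusted p = 0.0108; named after its values were seen). Its last 48 bases overlap the 3′ end of Impdh2 on the other strand, which rose by 0.96 ± 0.24 in Cko and by 1.69 ± 0.24 in WT mice, so its tags are uncertain. Without Cko-NS 4 and Cko-ST 3, 4 members rose in Cko mice, Atp5g2 and Atp5o being added, and 4 fell, with Ndufa6 lost and Cox7a2l added. Of all tested genes 6.71% rose and 7.99% fell in that fit. The median over the members was then 0.12. At an unadjusted p under 0.05, 10 members were higher and 11 lower, against 11.8% and 16.6% of all tested genes.

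The core and catalytic subunits named above for WT mice did not pass in Cko mice. Sdha (-0.41 ± 0.21), Sdhb (-0.62 ± 0.36), Ndufv1 (-0.56 ± 0.29) and Cyc1 (-0.45 ± 0.27) had negative log2 fold changes. Ndufs8 (0.67 ± 0.37), Atp5a1 (0.43 ± 0.17) and Uqcrfs1 (0.38 ± 0.38) had positive ones. Over 30 core subunits, isoforms and other members named throughout, the log2 fold change ran between -1.35 and 0.68. The lowest was that of Ndufs7, an iron-sulfur subunit of complex I (-1.35 ± 0.46, limma adjusted p = 0.0546 without the block).

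**Figure D4:**
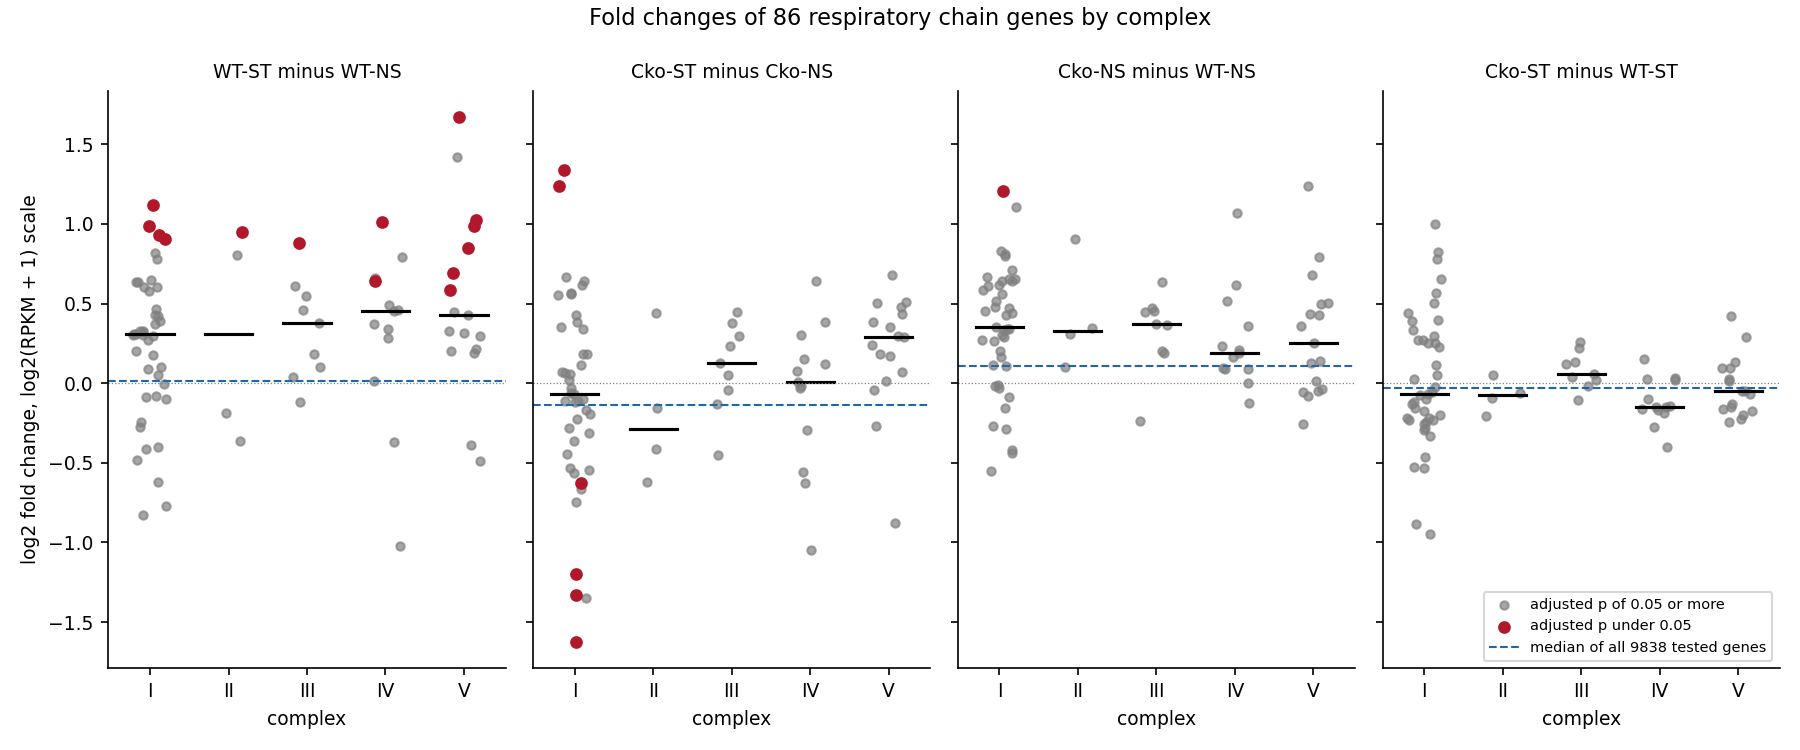
Log2 fold changes on the log2(RPKM + 1) scale of the 86 members, 1 point each, by complex; black lines are medians per complex, the dashed blue line is the median of all 9838 tested genes, and red points have an adjusted p under 0.05. Complex V has the most red points in WT mice (6 of 17, against 8.46% risen of all tested genes). The red points of the Cko stroke comparison are all in complex I, which holds 43 of the 86 members.

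Between genotypes in the non-stroke hemisphere, members were mostly higher in Cko-NS, and only Ndufb7 passed. The median log2 fold change was 0.34 over the members and 0.11 over all tested genes. With median-of-ratios scaling these were 0.21 and 0.00, so part of the members' shift was shared with the typical gene. At an unadjusted p under 0.05, 17 members were higher and 0 lower, against 10.7% and 3.62% of all tested genes. After median-of-ratios scaling 9 were higher and 0 lower, against 6.88% and 6.33%. As deposited, 69 of 86 had a positive value, against 60.5% of all tested genes. Ndufb7 measured 72.4, 59.5, 48.2 and 59.2 RPKM in Cko-NS, against 27.6, 28.7, 25.8 and 19.4 RPKM in WT-NS. The groups were far apart (1.20 ± 0.22, limma adjusted p = 0.0213). The 1 call was 1.16% of members, against 0.224% risen and 0.0915% fallen of all tested genes. It was lost without WT-NS 1, 3 or 4 and without Cko-NS 1 or 2 (highest adjusted p 0.0915). Without Cko-NS 4 and Cko-ST 3 the call stayed and the median over the members was 0.38. In that fit 19 members were higher at an unadjusted p under 0.05, against 9.77% of all tested genes. Without WT-NS 4 these were 10, closer to the background of 8.59%. The WT-NS libraries also serve as the baseline of the WT stroke comparison, so low values there enter both.

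Members that did not pass included Cox5a, at 1.07 ± 0.32 (limma adjusted p = 0.132), the complex II anchor Sdhc, at 0.90 ± 0.33 (adjusted p = 0.222), and the core subunit Ndufs1, at 0.71 ± 0.31 (adjusted p = 0.301). The 30 members named throughout ran between -0.44 (Ndufs8) and 1.07 (Cox5a) in this comparison, between -0.95 (Ndufs7) and 0.57 (Ndufs1) for Cko-ST against WT-ST, and none of them passed in either. Cox5a averaged 68.5 ± 20.2 RPKM in Cko-NS and 33.7 ± 15.3 RPKM in WT-NS (SD, n = 4 each), with overlap. In the stroke hemisphere 0 members passed between Cko-ST and WT-ST in limma, 0 were under an unadjusted p of 0.05 in either direction, and the median was -0.06, against -0.03 over all tested genes. Among all tested genes 0% passed, and 1.69% were higher and 3.15% lower at an unadjusted p under 0.05. Without Cko-NS 4 and Cko-ST 3 the median over members was 0.02, and 3 members were higher and 3 lower at an unadjusted p under 0.05, against 2.17% and 3.88% of all tested genes. Without Cko-ST 3 alone 3 were higher and 2 lower, against 1.93% and 3.38% of all tested genes. Without Cko-ST 2, 1 was higher and 3 lower, against 1.92% and 3.10%. Leaving out WT-ST 3 gave 0 higher and 3 lower, against 1.44% and 4.92%. The 0 at the unadjusted threshold thus depended on which libraries were kept and not on Cko-ST 3 alone. After adjustment 0 members passed in every fit that left out 1 library.

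The difference of the stroke effects, Cko minus WT, did not pass for any member in limma. At an unadjusted p under 0.05, 0 members were higher and 8 lower, which is 9.30% of the members, against 1.2% higher and 5.82% lower among all tested genes, of which 0% passed after adjustment. The median difference was -0.38 over the members and -0.14 over all tested genes, or -0.22 and 0.00 after median-of-ratios scaling. With that scaling 0 members were higher and 3 lower at an unadjusted p under 0.05, against 2.42% and 3.42% of all tested genes, so the members' share was close to the background. Leaving out 1 library moved the number under an unadjusted p of 0.05 from 8 to as few as 3 (without WT-ST 4) and as many as 15 (without WT-ST 3). It was 5 without Cko-NS 4 and Cko-ST 3. The members counted in these 3 fits were all lower, against 4.26%, 8.07% and 5.92% of all tested genes. The 30 members named throughout ran between -1.40 for Ndufs7 and 0.94 for Ndufs8. The lowest p belonged to Ndufb7 (-0.91 ± 0.31, adjusted p = 0.681), whose stroke effect was 0.02 ± 0.22 in Cko and 0.93 ± 0.22 in WT mice. Its 4 group means were 62.2 ± 19.0 RPKM in Cko-ST, 59.8 ± 9.89 in Cko-NS, 49.5 ± 9.03 in WT-ST and 25.4 ± 4.199 in WT-NS (SD, n = 4 each). For Ndufb7, then, WT-NS was the group that stood apart. WT-NS also had the lowest mean of Cox5a, which averaged 68.0 ± 21.7, 68.5 ± 20.2, 65.3 ± 17.0 and 33.7 ± 15.3 RPKM in Cko-ST, Cko-NS, WT-ST and WT-NS.

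Markers of other brain cells differed between these groups. The 5 oligodendrocyte markers summed to 20.3 to 268 RPKM in Cko-ST, 43.5 to 519.9 in Cko-NS, 29.3 to 368 in WT-ST and 183 to 1008 in WT-NS. The 11 mural markers summed to 15.9 to 108 RPKM in Cko-ST, 23.5 to 34.1 in Cko-NS, 12.6 to 49.3 in WT-ST and 51.2 to 71.1 in WT-NS, with Kcnj8 at 0 throughout WT-ST. Every WT-NS library was above every WT-ST and Cko-NS library in the mural sum, while the oligodendrocyte sums overlapped between groups. Most of the mural sum in WT-NS was 1 gene, Rgs5, at 38.2 to 57.6 RPKM, against 5.03 to 43.8 in WT-ST and 16.6 to 28.2 in Cko-NS. Pdgfrb and Higd1b, at 0.289 and 0.723 RPKM or less in WT-NS, overlapped between these groups. The 6 microglia and macrophage markers summed to 0.535 to 1.27 RPKM in Cko-ST, 2.34 to 7.81 in Cko-NS, 0.206 to 1.71 in WT-ST and 0.677 to 78.6 in WT-NS, with Tmem119 at 0 in both stroke groups. The 5 blood leukocyte markers with a row summed to 4.26 to 19.5 RPKM in Cko-ST, 8.94 to 83.3 in Cko-NS, 2.06 to 42.6 in WT-ST and 0 to 7.68 in WT-NS, with Cd3e at 0 in all 4 groups. Every Cko-NS library was above every WT-NS library in this sum. The 4 choroid plexus and ependyma markers summed to 4.07 to 994 RPKM in Cko-ST, 82.5 to 1322 in Cko-NS, 15.4 to 596 in WT-ST and 289 to 474 in WT-NS, and overlapped between groups. The 6 neuron markers summed to 38.2 RPKM or less and the 6 astrocyte markers to 17.5 RPKM or less in every stroke-experiment library. The 5 red cell and platelet markers summed to 578 to 7171 RPKM in Cko-ST, 2199 to 15341 in Cko-NS, 1384 to 4303 in WT-ST and 3154 to 5570 in WT-NS. Their part in the results was not tested, and in bulk samples fewer cells of a type and less RNA per cell cannot be told apart. The isoforms Ndufa4l2 and Cox4i2, known from brain pericytes, averaged 0.0512 and 0.0791 RPKM over the stroke libraries.

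Isoforms of complex IV known from muscle, testis or lung had means of 0.540 RPKM or less, apart from Cox7a1. Cox7a1, the heart and muscle form of subunit 7a, was the only alternative isoform past the filter, and ranged from 0 to 6.05 RPKM in Cko-ST, 0 to 5.53 in Cko-NS, 0 to 3.37 in WT-ST and 0 to 8.60 in WT-NS. Its groups overlapped in every comparison. The widely expressed partner Cox7a2 measured 71.7 to 116 RPKM in Cko-ST and 49.5 to 135 RPKM in WT-NS. Cox7b2, Cox8b and Cox8c had means of 0.0787 RPKM or less.

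Between Bcat and WT no member passed the threshold. Of 86 members 0 rose and 0 fell among 11252 tested genes in limma, where 0% of all genes passed. At an unadjusted p under 0.05, 6 members were higher and 5 lower, 6.98% and 5.81%, against 2.22% and 3.02% of all tested genes. A fit without the mean-variance trend gave 0 higher and 5 lower, against 2.11% and 2.99%, so the higher members depended on that setting. The median log2 fold change was -0.12 over the members and -0.06 over all tested genes, or -0.05 and 0.01 after median-of-ratios scaling, which left 6 higher and 5 lower at an unadjusted p under 0.05. Without WT 2 these were 3 and 2, without WT 1 they were 2 and 4, and the median was -0.06 and -0.30. The summed RPKM was 2297 ± 252 in Bcat (SD, n = 3) and 2366 ± 204 in WT (SD, n = 2). Red cell and platelet markers summed to 8230 to 17128 RPKM in Bcat and 7679 to 8092 in WT. Microglia and macrophage markers (1.64 to 2.11 and 0.205 to 0.470) and neuron markers (2.06 to 5.16 and 1.09 to 1.97) were also higher in Bcat. Fibroblast markers were lower (0.729 to 1.02 and 1.28 to 1.95), and the other marker sums overlapped. Their part in the results was not tested.

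The lowest p belonged to Cox5b, a nuclear subunit on the matrix side of complex IV, at 8.20, 19.0 and 19.4 RPKM in Bcat, against 48.0 and 38.8 RPKM in WT. All Bcat values were lower (-1.51 ± 0.41, unadjusted p = 0.00495, limma adjusted p = 0.822). The catalytic pair of complex II lay in opposite directions. Sdha measured 83.7, 64.6 and 69.0 RPKM in Bcat, against 50.3 and 44.4 RPKM in WT (0.60 ± 0.25), while Sdhb measured 4.54, 3.33 and 1.67 RPKM in Bcat, against 9.34 and 14.8 RPKM in WT (-1.67 ± 0.54). Neither passed, with limma adjusted p of 0.917 and 0.901. Atp5c1 measured 48.9, 51.9 and 45.7 RPKM in Bcat, against 29.1 and 27.0 RPKM in WT (0.78 ± 0.26, limma adjusted p = 0.901). Ndufa10 measured 8.83, 12.3 and 12.5 RPKM in Bcat, against 21.3 and 29.7 RPKM in WT (-1.11 ± 0.36, limma adjusted p = 0.901). In both genes the 3 Bcat values lay on 1 side of the 2 WT values. So few libraries can separate in this way by chance, and the share of all tested genes that did was not counted. The genes that led the stroke comparison spread widely here: Atp5g1 measured 6.02, 4.49 and 11.1 RPKM in Bcat, against 4.50 and 16.0 RPKM in WT. Over the 30 members named throughout, the log2 fold change ran between -1.67 for Sdhb and 1.05 for Cox7a1, which was listed at 7.92, 0 and 0 RPKM in Bcat and at 0 in both WT libraries.

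**Figure D5:**
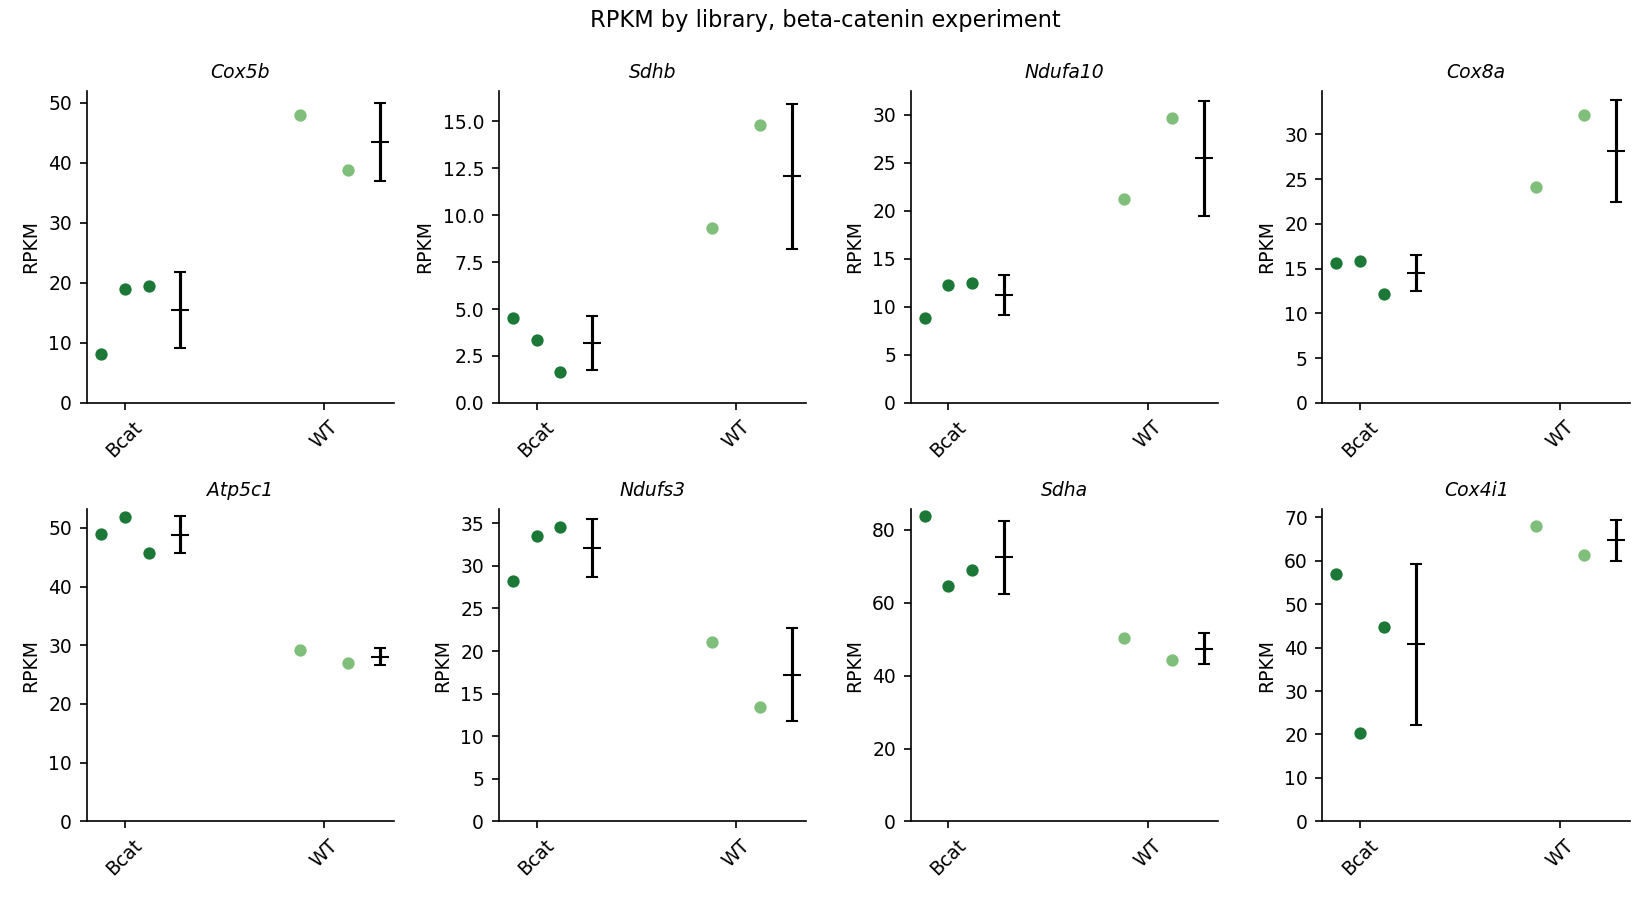
RPKM of 8 members in the 3 Bcat and 2 WT libraries of the beta-catenin experiment, with the mean and SD beside the points. The 8 genes were picked by hand for display and do not stand for the members as a whole. Cox5b, Sdhb, Ndufa10 and Cox8a are lower and Atp5c1, Ndufs3 and Sdha higher in all 3 Bcat libraries. None of the 8 passed after adjustment.

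Other genes of mitochondrial energy supply were read from 6 lists, whose counts stand against 6.44% risen and 8.71% fallen of all tested genes in Cko mice and 8.46% and 4.84% in WT mice. Cytochrome c (Cycs), the carrier between complexes III and IV, rose in both genotypes, at 49.96 ± 12.4 RPKM in Cko-ST and 16.5 ± 5.21 RPKM in Cko-NS (1.56 ± 0.23, limma adjusted p = 1.71e-04), and at 46.6 ± 4.96 RPKM in WT-ST and 17.2 ± 2.07 RPKM in WT-NS (1.39 ± 0.23, adjusted p = 5.39e-04; SD, n = 4 each). Of the 21 tested electron carriers and regulators 3 rose in Cko and 4 in WT mice, and Slc25a5, the carrier that swaps ADP for ATP, and 2010107E04Rik were among them in both. Usmg5, a small ATP synthase partner, rose in WT mice (0.84 ± 0.19). Of 36 assembly factors outside the Nduf names 1 fell in each genotype, a share below the background, namely Surf1, which helps build complex IV (-1.30 ± 0.36 in Cko and -1.11 ± 0.36 in WT mice). Of 20 genes of the citric acid cycle and pyruvate dehydrogenase, Cs rose and Pdk1, a kinase that shuts pyruvate dehydrogenase, fell in Cko mice (-1.95 ± 0.46), 1 gene each way and no more than the background, while Idh3a, Pdhx and Dlst rose in WT mice. Of 21 genes of mitochondrial protein import, Hspd1, Hspe1, Hspa9 and Timm17a rose and Timm8b fell in Cko mice, and Hspe1, Hspa9 and Timm17a rose in WT mice. The differences between genotypes were not past the threshold for any gene of the lists. Hspe1, the partner of the chaperone Hspd1, measured 123 ± 28.2 RPKM in Cko-ST against 69.5 ± 26.9 RPKM in Cko-NS, and 138 ± 18.7 RPKM in WT-ST against 44.2 ± 7.19 RPKM in WT-NS. None of 14 tested biogenesis regulators passed in limma in either genotype, with 2 in Cko and 3 in WT mice at an unadjusted p under 0.05. The 13 subunits encoded in mitochondrial DNA had no row in the table and were not analysed here. In the genotype and beta-catenin comparisons no gene of the 6 lists passed the adjusted threshold in limma.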

How the data were processed

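Gene expression was read from a deposited table of RPKM values, a unit that the authors scaled to library size and gene length before deposit. Per the submitters' processing notes, edgeR and the mm10 build were used; the aligner, the annotation, the gene lengths and the use of strand remain not given in the sources used here. Of its 24260 rows, 54 sharing 23 names were dropped, 24206 names were used, and 27 of these were gene names turned into dates. A further 8 columns belong to no described sample and were not used. Read depth was estimated from the size of 1 read in low values. It was 4.73 to 19.7 M reads in the stroke experiment and 6.14 to 15.0 M reads in the beta-catenin experiment, and 2 estimates came within 5% of each other in 15 of 16 and 4 of 5 libraries. Correlation between replicates was 0.940 to 0.980 and 0.917 to 0.946.

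Genes with a mean of at least 1 RPKM in an experiment were tested on log2(RPKM + 1) with limma 3.58.1 in R 4.3.3 (group means, variance trend, two-sided, Benjamini-Hochberg over all tested genes, threshold 0.05), in 1 fit over the 16 stroke libraries and 1 over the 5 others. Fold changes on this scale understate those of low genes. Xist and 4 Y-linked genes were left out of the tests. The test was checked on simulated data. Python 3.11.15, pandas 2.3.3, numpy 2.4.6 and matplotlib 3.10.9 were used for joins and plots. Coordinates are those of GENCODE on GRCm38. RefSeq names matched 73 of the 86 members in the promoter table.

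The members and the gene lists were chosen with earlier results of these data known. In each comparison the text names up to 8 of the largest rises and falls past the threshold whose higher group averaged 5 RPKM or more, and always 30 core subunits, isoforms and other members; these 30 have values in the text for WT stroke (Cox7a1 and Cox7a2 as RPKM), and in the other comparisons a range, with values for some; from other lists it names up to 3 genes with the lowest p past the threshold. Genes named outside this rule (Uqcrq, Ndufaf3, Ndufa10, genes added or lost under an alternative, and overlapping neighbours) were chosen after their values were seen. Values of 1 member covered by this rule are left unreported, though it stays in the counts and medians.

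Same-numbered Cko-NS and Cko-ST libraries deviated together across genes (r of 0.100, 0.134, 0.214 and 0.105, each library closest to its own number), so the numbers were read as pairs there, from the data and not from the labels. Same-numbered WT-NS and WT-ST libraries gave 0.0986, 0.130, 0.0721 and 0.0117. Numbers 1, 2 and 3 were closest to their own number there too, and number 4 was closest to number 1. The WT numbers were not read as pairs, though 1, 2 and 3 behaved much like those of Cko. Alternatives were other scalings, pseudocounts and filters, a fit without the variance trend, a GC correction, a replicate block, fits of the compared groups only, and leaving out libraries.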

Additional observations from a re-analysis of the deposited data

Results flagged for a closer look

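In 17 of 192 groups of 4 libraries examined (8.85%), 1 library lay far from the other 3 by Dixon's test, where chance flags about 5%. In WT-NS, Ndufa7 was 14.78 RPKM in library 4, with the others at 24.88 to 25.96 RPKM. In WT-ST 3 the median shift of complex I was -0.2025 on the log2 scale (others 0.4218 to 0.5311), Cyc1 was 6.098 RPKM (others 9.267 to 9.691) and Ndufb7 was 36.02 RPKM (others 52.31 to 54.84), so this library lay low for complex I as a whole. In WT-ST 1 both anchors of complex II lay high, Sdhc at 34.58 RPKM (others 8.267 to 12.53) and Sdhd at 30.06 RPKM (others 17.5 to 18.39).

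In Cko-NS 4, a library whose labelled sex did not match its genes, Atp5b was 34.31 RPKM (others 41.86 to 43.07) and Atp5g1 was 11.51 RPKM (others 3.471 to 4.292). In Cko-NS 3, Atp5g3 was 80.67 RPKM (others 92.77 to 93.66) and Sdhc was 20.98 RPKM (others 13.47 to 14.07). In Cko-NS 1, Ndufaf7 was 5.394 RPKM (others 9.329 to 9.608). In Cko-ST 3, also mismatched by sex, Atp5g3 was 91.63 RPKM (others 116.2 to 119.8) and Atp5o was 48.96 RPKM (others 67.02 to 69.8). In Cko-ST 2, Cox7a1 was 6.047 RPKM (others 0 to 0.3931). In Cko-ST 4, Ndufs1 was 20.02 RPKM (others 8.76 to 10.5), Uqcrc2 was 52.26 RPKM (others 32.19 to 35.59) and Uqcrfs1 was 34.3 RPKM (others 17.29 to 19.51).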

How the results depend on the processing

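Precision is limited by 4 libraries a group (3 and 2 for beta-catenin) and by low reads for genes of a few RPKM. With median-of-ratios scaling the members risen in Cko stroke numbered 5, against 8.57% of all tested genes. With quantile normalization 10 members rose in WT stroke, and with the GC trend removed 15, against 7.77% and 8.76% of all tested genes. With a pseudocount of 5, 1 member, Cox7a2l, fell in WT stroke, and likewise 1 with a mean RPKM of 5 or more. Of all tested genes 4.71% and 8.08% fell there. With no filter on low values, 8 of 91 members rose in WT stroke, 1 in Cko stroke and 0 between Cko-NS and WT-NS. Of the 17652 genes then tested, 3.98%, 3.13% and 0.0510% rose, so the members' share in WT stroke stayed above the background. With no mean-variance trend, 9 rose in WT stroke and 0 between Cko-NS and WT-NS, against 7.82% and 0.0915% of all tested genes. In fits of the compared groups only, 1 member fell in WT stroke, 1 rose in Cko stroke and 0 rose between Cko-NS and WT-NS. The shares of all tested genes were 5.04%, 4.87% and 0.0102%. Without Cko-NS 4 and Cko-ST 3 together, 2 fell in WT stroke (Cox7a2l and Ndufaf7), 4 rose in Cko stroke, and the median log2 fold change of Cko-ST against WT-ST was 0.0207. The cause of these changes was not tested. With a replicate block 18 members rose in WT stroke (Atp5k, Cox7b, Ndufa3 and Ndufs4 added), where the numbers were not read as pairs. Of all tested genes 8.91% rose there. In Cko stroke 3 rose and 5 fell with the block, 1 rose between Cko-NS and WT-NS, and it changed no call other than those named. The shares of all tested genes were 6.93%, 9.09% and 0.213%.

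Leaving out 1 library gave 6 to 15 risen, 0 to 2 fallen and a median of 0.28 to 0.46 in WT stroke. Of all tested genes 6.61% to 9.52% rose and 2.88% to 5.56% fell in these fits. In Cko stroke it gave 1 to 4 risen, 3 to 5 fallen and a median of -0.0298 to 0.17. There 4.56% to 6.70% of all tested genes rose and 5.72% to 9.16% fell. Between Cko-NS and WT-NS it gave 0 to 1 risen and a median of 0.26 to 0.40, against 0.0102% to 0.417% of all tested genes risen. The median ranged from -0.16 to 0.0207 between Cko-ST and WT-ST, from -0.47 to -0.29 for the difference of stroke effects, and from -0.30 to -0.0598 for Bcat against WT. The Cko stroke median changed sign without Cko-ST 2 (-0.0298) and without Cko-ST 4 (-0.02). The median of Cko-ST against WT-ST changed sign without WT-ST 1 (0.0079) and without Cko-ST 3 (0.0207).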
